A study of Mus musculus with 12 samples.

Results

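Whether the small RNA response of aortic smooth muscle cells to POVPC depended on OCT4 was examined as a difference of effects. All 12 of the 12 arrays of the series entered it, 3 in each of 4 groups taken from the source names of the samples. Cultured primary MASMC, smooth muscle cells isolated from the mouse aorta, were transfected for 48 h with siRNA to Oct4 (siOCT4) or with pooled siRNA that had no target (siNT). They then received 10 μg/mL POVPC or the vehicle DMSO for 24 h, which gave siNT-DMSO and siNT-POVPC beside siOCT4-DMSO and siOCT4-POVPC. Transfection took place in serum-free medium in every group, and the mouse strain, sex and age of the cells are not given in the sources used here. The knockdown is transient, and the Pou5f1 transcript, which encodes OCT4, was not analysed here. The labels do not say that replicates were separate cultures, so p-values measure the spread between these samples, which may be technical. The names miR-143 and miR-145, which are typical of smooth muscle, belong to none of the named probes, so the labelled cell type was not checked. In such bulk RNA, fewer cells of a type and less RNA per cell cannot be told apart.

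POVPC is an oxidized phospholipid of atherosclerotic lesions that shifts cultured smooth muscle cells away from their contractile state. OCT4 is best known for keeping stem cells pluripotent and has also been studied in smooth muscle cells of lesions. A miRNA guides an Argonaute protein to messenger RNAs, mainly through bases 2 to 8 of its mature strand, the seed, and lowers their stability and translation. miRNAs with the same seed are grouped as a family because they can pair with the same sites.

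For each probe, the POVPC effect is the log2 signal with POVPC minus that with DMSO, and the difference of effects is the effect in siOCT4 cells minus the effect in siNT cells. A difference above 0 therefore means that the signal moved up more, or down less, with POVPC after knockdown of Oct4. The array carried 9709 miRNA probes and 2716 probes coded PST and 1767 coded TRF, codes that the sources used do not spell out. Of these 14192 small RNA probes, 10627 were tested because at least 3 of the 12 arrays read them well above background. They comprised 8621 miRNA, 334 PST and 1672 TRF probes. A miRNA name could be given to 520 probes. They belong to 110 miRNAs, all picked by the study for a change in some comparison of these same arrays. That choice makes large values more likely among named probes than among the rest. It also favours a sign, since the difference of effects uses the same arrays. A listing as higher with POVPC in siOCT4 cells, or as lower after knockdown under DMSO, favours a difference above 0. So does a listing as lower with POVPC in siNT cells. Listings the other way favour one below 0.

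The mature sequences of the miRNAs on which the description turns are shown first, 5′ to 3′, with the seed in capitals. The let-7 strands were chosen because all their probes leaned one way, and let-7j carries another last seed base than its relatives.
let-7g-5p: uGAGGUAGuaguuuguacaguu
let-7i-5p: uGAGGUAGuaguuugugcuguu
miR-98-5p: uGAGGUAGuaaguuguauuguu
let-7j: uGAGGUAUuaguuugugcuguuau
The miR-146 pair and the miR-15/16 seed group are shown because members with a shared seed could be set side by side.
miR-146a-5p: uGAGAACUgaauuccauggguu
miR-146b-5p: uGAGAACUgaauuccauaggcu
miR-195a-5p: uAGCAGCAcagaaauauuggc
miR-322-5p: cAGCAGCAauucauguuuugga
The following pair is nearly identical, and its members differed in the sign of the difference of effects.
miR-669a-3p: aCAUAACAuacacacacacguau
miR-669a-3-3p: aCAUAACAuacacacacauguau
The last set holds further miRNAs whose values are given by array or control array, each with a seed of its own among the named miRNAs.
miR-26b-5p: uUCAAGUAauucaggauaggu
miR-199a-3p: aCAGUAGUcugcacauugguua
miR-494-3p: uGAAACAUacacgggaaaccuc
miR-5615-3p: uGUCUCAGaaaacaaccaagga
Sequences came from the study's own probe lists. Of the 110 named miRNAs, 85 matched the RefSeq mature sequence of GRCm38.p6 exactly and 25 had no entry of that name there, miR-669a-3p and miR-669a-3-3p among them. Those members differed at 1 base, C19U, counted from 1 at the 5′ end of miR-669a-3p. miR-146a-5p and miR-146b-5p differed by G18A and U21C, and let-7g-5p and let-7i-5p by A17G and A19U. Probes for such close relatives can share signal.

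Each named probe is G followed by the start of the reverse complement of the mature strand, and the probes of a miRNA differ only in how far they reach towards its 5′ end. The probes of miR-494-3p show this nesting, written 5′ to 3′ in order of length.
probe of 13 target bases: ggaggtttcccgtg
probe of 14 target bases: ggaggtttcccgtgt
probe of 15 target bases: ggaggtttcccgtgta
probe of 16 target bases: ggaggtttcccgtgtat
probe of 17 target bases: ggaggtttcccgtgtatg
Their differences of effects were −1.26, −1.73, −1.33, −1.33 and −1.39 on the log2 scale in this order, so that all 5 pointed down. Such probes read the same labelled RNA and are not replicates of it. Over the 520 named probes, the difference had a Pearson r of 0.06 with target length and of 0.04 with GC percent, given as a description.

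The arrays were not alike in their technical layout. The labels name no slide, so arrays with the same recorded scan time were taken to share 1 slide. No array position recurred within a slide inferred in this way. On this reading, the 6 siNT arrays and siOCT4-DMSO replicates 1 and 2 shared slide 1. Slide 2 held the whole siOCT4-POVPC group of 3 arrays together with siOCT4-DMSO replicate 3. The median raw signal of small RNA probes was 24.1 on siOCT4-DMSO replicate 3 and between 5.59 and 8.73 on the other 11 arrays, and between 7706 and 11759 probes were well above background. The POVPC effect in siNT cells thus lay within slide 1. In siOCT4 cells it had 1 control on its own slide and 2 on the other. No within-slide value of the whole difference exists, because slide 1 held no siOCT4-POVPC array and slide 2 no siNT array.

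No small RNA probe passed the test for a difference of the POVPC effects. By limma with Benjamini-Hochberg adjustment over the 10627 probes, 0 (0%) had an adjusted p under 0.05 and a difference of at least 1.5-fold, and the lowest adjusted p was 0.784. At an unadjusted p under 0.05 there were 565 probes (5.32%), of which 274 (2.58%) lay above 0 and 291 (2.74%) below. An ordinary linear model without moderation also called 0, with 604 probes at an unadjusted p under 0.05. The median difference was −0.02, the quartiles were −0.21 and 0.18, and the extremes were −2.60 and 2.24.

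The interval of each difference shows what the 12 arrays could resolve. The median standard error was 0.26 and the median 95% interval reached 0.57 to either side on the log2 scale. For 2361 probes (22.2%) the whole interval lay within 1.5-fold in either direction, and for 7572 (71.3%) it lay within 2-fold. For the other probes a difference beyond 2-fold remained inside the interval. TRF probes were the most tightly estimated class, with a median standard error of 0.24 and 74.5% of intervals within 2-fold. Among PST probes the median standard error was 0.41 and the share was 28.7%.

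The same fit gave calls within the siOCT4 arm but not within the siNT arm. In siOCT4 cells 55 probes (0.518%) passed the test for a POVPC effect, 40 higher and 15 lower with POVPC. In siNT cells limma called 0 probes (0%). This contrast of 55 against 0 is not a difference of effects: of the 55 probes, 0 were called for the difference itself. The 40 probes that were higher with POVPC in siOCT4 cells had a median effect of 0.84 there and of 0.34 in siNT cells, and for 39 of them the sign was the same in both arms. The 15 lower probes had a median effect of −1.03 in siOCT4 cells and of −0.20 in siNT cells, with the same sign in 12. Since the 55 were chosen by their siOCT4 arrays, these gaps are a description. For the siNT arm, the count rests on slide 1 alone, and for the siOCT4 arm on both slides.

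**Figure D1:**
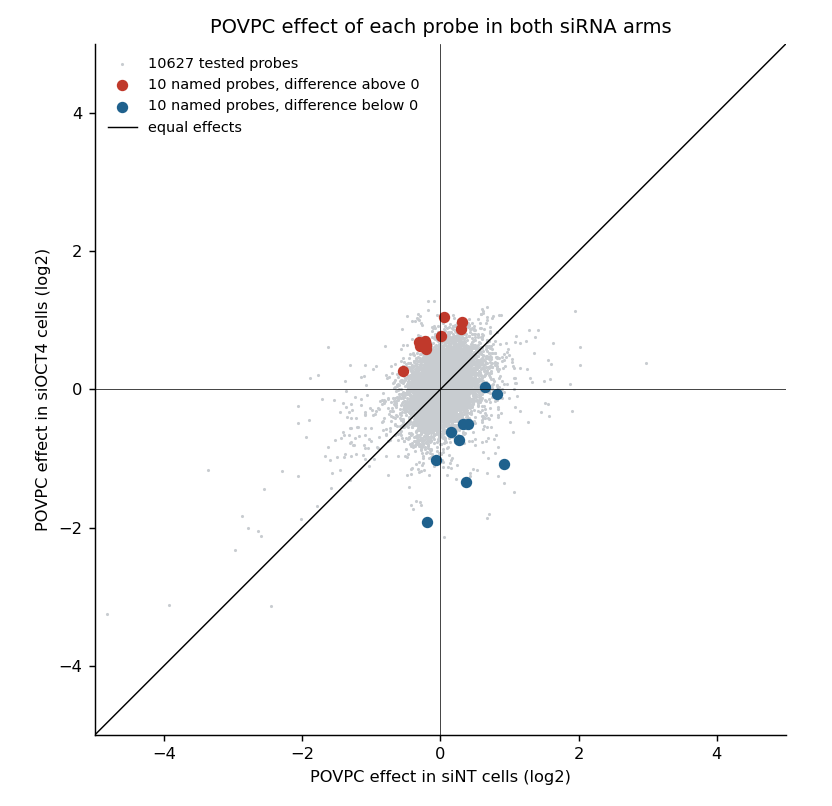
The POVPC effect in siNT cells (horizontal, log2) is plotted against that in siOCT4 cells (vertical, log2) for 10627 tested probes in grey, with the line of equal effects. The 20 probes with the lowest p by direction and class, 10 in red above the line and 10 in blue below it, lie apart from the line, but 0 of the tested probes passed the adjusted test.

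The 20 probes with the lowest p by class and direction were taken from probes detected in every group. In 15 of them the group mean farthest from the other 3 was siOCT4-DMSO. Over all 10627 probes it was siOCT4-DMSO for 34.8%, siOCT4-POVPC for 23.7%, siNT-DMSO for 21% and siNT-POVPC for 20.5%. Over the 565 probes at an unadjusted p under 0.05 the shares were 41.2%, 28.3%, 11.3% and 19.1% in the same order. siOCT4-DMSO is also the one group that spans both slides and holds the bright array, and their part in this pattern was not tested.

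miRNAs above 0 were led by miR-146b-5p, of the miR-146 family, whose members are induced by NF-kappaB and restrain inflammatory signalling. The mean log2 signal of the 5 miR-146b-5p probes was 6.17, 4.80 and 5.92 in siNT-DMSO, 5.20, 5.28 and 6.02 in siNT-POVPC, 4.23, 4.15 and 4.32 in siOCT4-DMSO and 5.19, 5.43 and 5.36 in siOCT4-POVPC. The siNT groups overlapped widely, and the 3 siOCT4-DMSO arrays were the lowest of all 12. The effect was −0.13 in siNT and 1.09 in siOCT4 cells, a difference of 1.23 (95% interval 0.25 to 2.21, limma adjusted p 0.963). Its sister miR-146a-5p had effects of −0.57 and −0.06 and a difference of 0.51 (−0.66 to 1.67). All 10 probes of the pair lay above 0, with a median of 0.74 against −0.02 over all tested probes. An unadjusted p under 0.05 was reached by 4, all of miR-146b-5p (40%, against 22.5% over all named and 5.32% over all tested probes). The study listed both miRNAs as lower after knockdown under DMSO, a choice that favours this sign. The median was 0.89 without siOCT4-DMSO replicate 3 and 0.59 with that array as the only siOCT4 control, under which 3 of the 10 probes lay below 0. For miR-146a-5p the median over probes was 0.49 with all controls and −0.04 with that array alone, whereas for miR-146b-5p it was 1.35 and 1.28. Leaving out siNT-POVPC replicate 1 or 3 moved the median of the pair to 0.44 or 1.14.

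The named members of the let-7 family, which represses growth-promoting and pluripotency-associated messenger RNAs in differentiated cells, lay above 0 throughout. All 20 tested probes of let-7g-5p, let-7i-5p, let-7j, miR-98-5p and let-7d-3p had a positive difference, with a median of 0.45. Of these, 13 reached an unadjusted p under 0.05 (65%, against 22.5% over all named probes). The study listed let-7i-5p as lower after knockdown under DMSO and the others as higher with POVPC in siOCT4 cells. Both choices favour this sign. Of the 29 miRNAs listed as higher with POVPC in siOCT4 cells, 27 had a median above 0. The shared sign is thus not shown to be a trait of the family. let-7i-5p read 8.60, 8.45 and 8.61 in siNT-DMSO, 8.59, 8.73 and 8.84 in siNT-POVPC, 7.56, 7.73 and 7.57 in siOCT4-DMSO and 8.15, 8.26 and 8.25 in siOCT4-POVPC. The siNT groups overlapped, while both siOCT4 groups were separate from them and from each other. The effects were 0.17 and 0.60 and their difference 0.43 (0.09 to 0.78, adjusted p 0.963). For let-7g-5p the difference was 0.41 (0.07 to 0.76), for miR-98-5p 0.48 (0.17 to 0.79) and for let-7j 0.48 (0.10 to 0.87). let-7d-3p is the passenger strand with another seed and rests on 1 probe, with a difference of 0.93. The median of the 20 probes was 0.45 without siOCT4-DMSO replicate 3 and 0.53 with that array as the only siOCT4 control. Under the 31 alternatives that keep probes single, the median for let-7 ran from 0.18 with normexp background to 0.53.

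A single let-7j probe had the lowest p of all eligible miRNA probes above 0. It read 5.50, 5.39 and 5.55 in siNT-DMSO, 5.36, 5.52 and 5.59 in siNT-POVPC, 4.64, 4.78 and 4.44 in siOCT4-DMSO and 5.47, 5.33 and 5.39 in siOCT4-POVPC. The siOCT4-DMSO arrays lay below those of all other groups, which overlapped. The difference was 0.77 with a standard error of 0.17 and a limma adjusted p of 0.784.

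Other conserved miRNAs that are common in cultured mesenchymal cells leaned the same way, but the study's choice favoured this. Of 53 probes of 11 such miRNAs, 47 lay above 0, with a median of 0.35. At an unadjusted p under 0.05 there were 20 (37.7%, against 22.5% over all named probes), 19 of them above 0. Most of the 11 were listed by the study as higher with POVPC in siOCT4 cells. miR-27b-3p and miR-425-5p were listed as lower after knockdown under DMSO. miR-26b-5p, which shares its seed with miR-26a, read 7.78, 7.67 and 7.69 in siNT-DMSO and 7.91, 7.95 and 8.05 in siNT-POVPC. It read 7.08, 7.20 and 7.35 in siOCT4-DMSO and 7.96, 8.04 and 8.05 in siOCT4-POVPC. Thus siOCT4-DMSO was lowest, and the POVPC groups overlapped. The difference was 0.55 (0.22 to 0.89, adjusted p 0.916), and all 5 probes lay above 0. miR-199a-3p, one of the abundant miRNAs of mesenchymal cells, had effects of 0.21 and 0.80 and a difference of 0.60 (0.04 to 1.16). Its siOCT4-DMSO arrays read 8.38, 8.17 and 7.67, the third being the bright array, and the median difference of its probes was 0.64 with all controls and 0.41 without that array. The hypoxia-induced miR-210-3p was the only one of the 11 with a median below 0, at −0.10. The study had listed it as higher after knockdown under DMSO, which favours that sign.

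Further lists defined by a seed or a genomic cluster also depended on single arrays. The 3 miRNAs with the AGCAGCA seed of miR-15/16, which restrain the cell cycle, had a median of 0.39 over 15 probes, which was 0.22 without siOCT4-DMSO replicate 3 and 0.60 without replicate 1. Among them miR-195a-5p had a difference of 0.61 with an interval from −0.45 to 1.67. Its median of 0.64 over probes became 0.26, 1.08 or 0.35 when siNT-DMSO replicate 1, 2 or 3 was left out. The X chromosome cluster of miR-322, miR-503, miR-542 and miR-450 had a median of 0.19, with 25 of 30 probes above 0 and 0 at an unadjusted p under 0.05. That median was 0.005 without siOCT4-DMSO replicate 3, 0.37 without replicate 1, 0.60 with slide as a block and −0.05 with array quality weights. POVPC effects in this cluster had the same sign in both arms, with medians of 0.59 in siNT and 0.74 in siOCT4 cells. miR-183-5p and miR-96-5p had a median of 0.24, with 1 of 10 probes (10%, against 22.5% over all named probes) at an unadjusted p under 0.05. Leaving out siNT-DMSO replicate 2 made it 0.16, siNT-POVPC replicate 2 0.37 and siNT-POVPC replicate 3 0.13. The miR-10 and miR-196 strands of the HOX clusters had a median of 0.19 over 18 probes, 10 above 0 and 8 below. Of these 18, 8 (44.4%, against 22.5% over all named probes) had an unadjusted p under 0.05. The 8 below 0 were those of miR-196a-1-3p and miR-196a-2-3p, of which no siOCT4-POVPC array read 4 of 5 and 3 of 3 well above background. The 10 others, which alone were well above background on all 12 arrays, had a median of 0.43. The median of the 18 was 0.08 without siOCT4-DMSO replicate 3, 0.30 without replicate 1 and 0.30 without siNT-DMSO replicate 2. miR-10a-3p had a difference of 0.42 (0.08 to 0.76) and miR-10a-5p one of 0.39 (−0.07 to 0.85). For miR-10a-5p the median over probes was 0.43 with all controls, 0.24 without siOCT4-DMSO replicate 3 and 0.84 with that array as the only control.

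**Figure D2:**
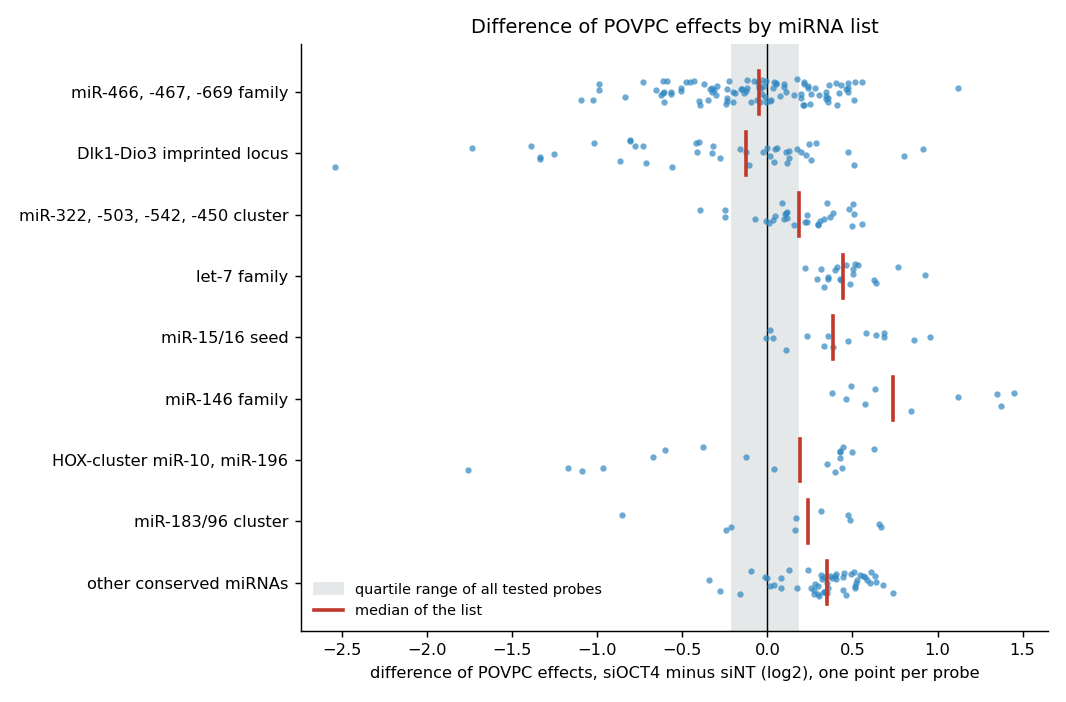
Each point is 1 tested probe of a listed miRNA, placed by its difference of POVPC effects (log2, siOCT4 minus siNT); red bars are list medians and the grey band runs between the quartiles of all tested probes, −0.21 and 0.18. All 20 let-7 probes and all 10 miR-146 probes lie to the right of 0, while the lists of the miR-466, miR-467 and miR-669 family and of Dlk1-Dio3 spread to both sides.

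miRNAs below 0 were led by miR-5615-3p and miR-494-3p. miR-5615-3p read 7.19, 7.37 and 7.75 in siNT-DMSO, 8.36, 7.96 and 8.22 in siNT-POVPC, 5.60, 4.16 and 3.72 in siOCT4-DMSO and 3.59, 3.57 and 3.55 in siOCT4-POVPC. All siOCT4 arrays were below all siNT arrays, and siOCT4-DMSO spread from 3.72 to 5.60. The effects were 0.75 and −0.93, with opposite signs, and the difference was −1.67 (−2.83 to −0.52, adjusted p 0.916). The median over its probes was −1.68 with all controls, −2.15 without siOCT4-DMSO replicate 3, −1.09 without replicate 1 and −0.81 with replicate 3 as the only control. The size of this difference therefore turned on which siOCT4-DMSO arrays were used. The study listed miR-5615-3p as higher with POVPC in siNT cells, which favours this sign. It also listed it as lower after knockdown under DMSO, which favours the other.

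miR-494-3p, a miRNA of the imprinted Dlk1-Dio3 locus, showed the other form. It read 6.34, 5.72 and 6.71 in siNT-DMSO, 6.17, 5.86 and 5.79 in siNT-POVPC, 8.01, 7.34 and 7.02 in siOCT4-DMSO and 5.79, 5.84 and 5.56 in siOCT4-POVPC. The 3 siOCT4-DMSO arrays were above the other 9, among which the groups overlapped. The effects were −0.32 and −1.73 and the difference −1.41 (−2.26 to −0.56, adjusted p 0.916). Its 5 probes all had an unadjusted p under 0.05. Their median was −1.59 without siOCT4-DMSO replicate 3 and −0.86 with that array as the only control. The study listed miR-494-3p as lower with POVPC in siOCT4 cells and as higher after knockdown under DMSO. Both choices favour this sign.

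The members of the Dlk1-Dio3 locus went both ways. Over 43 probes of 9 miRNAs the median was −0.12, with 18 probes above 0 and 25 below, and this sign turned when only well detected probes were used or the floor was raised to 8. At an unadjusted p under 0.05 there were 14 probes (32.6%, against 22.5% over all named probes), 11 below 0 and 3 above. Leaving out siNT-DMSO replicate 1 made the median −0.08, replicate 2 of that group −0.26, and siOCT4-DMSO replicate 3 −0.21. Of the 3 above 0, 2 were probes of miR-485-3p. No siNT-DMSO array read any of the 4 probes of that miRNA well above background, so no difference is given for it. miR-376a-3p had a difference of −0.07 (−0.83 to 0.69). For miR-376a-3p the POVPC effects were alike in both arms, with medians over probes of 0.72 and 0.77. miR-299a-3p had a median of −0.78, but no siOCT4-POVPC array read 4 of its 5 probes well above background, so its value there is only a bound.

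miR-6360 had the narrowest interval of the 8 miRNAs with the lowest medians. It read 4.41, 4.47 and 4.22 in siNT-DMSO, 4.66, 4.63 and 4.55 in siNT-POVPC, 4.88, 4.88 and 5.17 in siOCT4-DMSO and 4.45, 4.43 and 4.32 in siOCT4-POVPC. siNT-POVPC lay above siNT-DMSO and siOCT4-POVPC below siOCT4-DMSO on every array. The effects were 0.25 and −0.58 and the difference −0.82 (−1.20 to −0.45, adjusted p 0.916). All 5 probes lay below 0, and their median was −0.73 without siOCT4-DMSO replicate 3 and −1.02 with it as the only control. The study listed miR-6360, like miR-494-3p, as lower with POVPC in siOCT4 cells and as higher after knockdown under DMSO. Both choices favour a difference below 0.

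**Figure D3:**
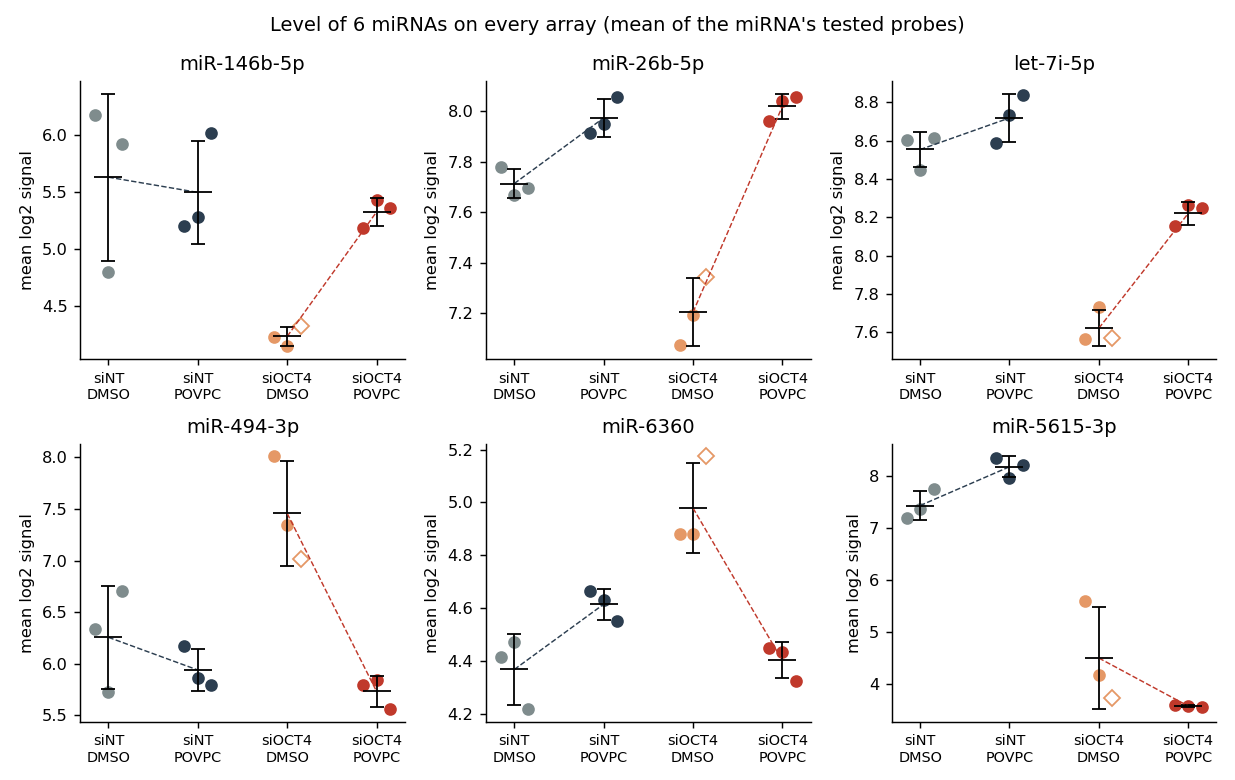
Mean log2 signal of a miRNA's tested probes on each of the 12 arrays for 6 miRNAs, with group mean and SD in black, dashed lines joining DMSO to POVPC within each siRNA arm, and an open diamond for siOCT4-DMSO replicate 3. For miR-146b-5p, miR-26b-5p and let-7i-5p the siOCT4-DMSO arrays lie lowest, for miR-494-3p and miR-6360 they lie highest, and for miR-5615-3p all siOCT4 arrays lie below the siNT arrays.

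In the family of miR-466, miR-467 and miR-669, much of which is encoded in repeats within the Sfmbt2 gene, the members diverged. Over 100 probes of 20 miRNAs the median was −0.05 (between −0.08 and −0.01 over the alternatives), with 42 above 0 and 58 below. An unadjusted p under 0.05 was reached by 11 (11%, against 22.5% over all named probes). miR-669a-3-3p read 5.10, 5.01 and 5.21 in siNT-DMSO, 5.85, 5.81 and 5.53 in siNT-POVPC, 3.33, 3.02 and 3.18 in siOCT4-DMSO and 3.30, 3.26 and 3.32 in siOCT4-POVPC. The siNT-POVPC arrays all lay above the siNT-DMSO arrays, while the siOCT4 groups overlapped, with effects of 0.62 and 0.12 and a difference of −0.50 (−0.90 to −0.11, adjusted p 0.963). miR-669a-3p, which differs from it by C19U, had effects of 0.13 and 0.61 and a difference of 0.48 (0.09 to 0.88). All 5 probes of the first lay below 0 and all 5 of the second above it, although these probes differ by a single base in their shared length. The study listed miR-669a-3-3p as higher with POVPC in siNT cells, which favours a difference below 0. It listed miR-669a-3p as higher with POVPC in siOCT4 cells, which favours one above 0. Both were also listed as lower after knockdown under DMSO. The gap between these miRNAs was not tested. Along with them, miR-669j had a difference of −0.57 (−0.93 to −0.22), and 3 of its 5 probes reached an unadjusted p under 0.05.

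**Figure D4:**
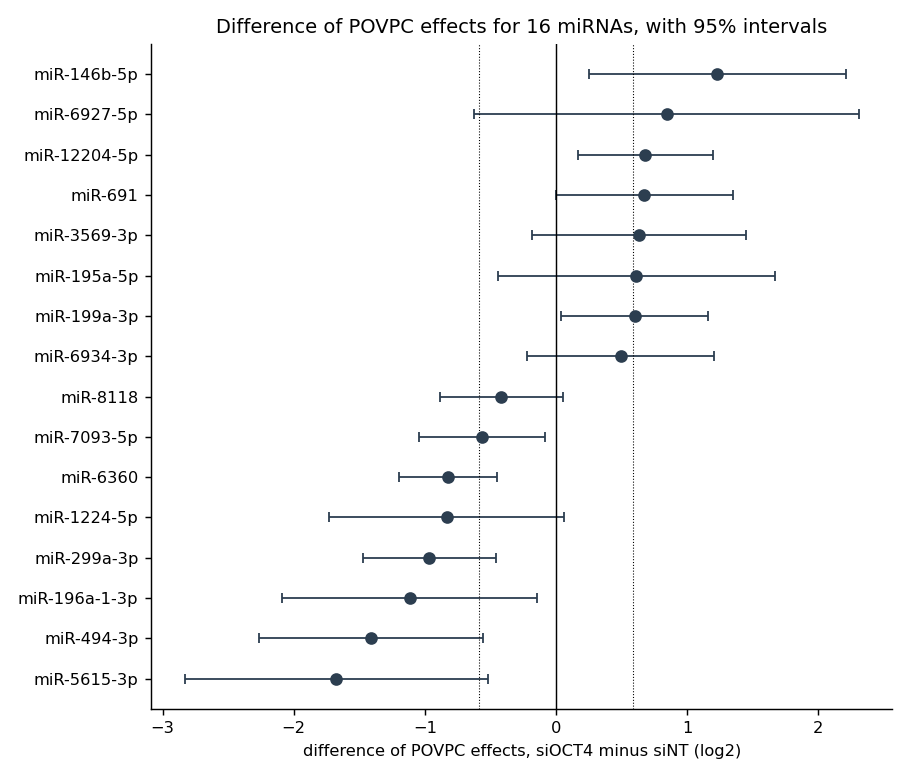
The difference of POVPC effects (log2, siOCT4 minus siNT) is shown with its 95% interval for the 16 miRNAs with the largest median differences, fitted on the mean of each miRNA's probes, with dotted lines at 1.5-fold. Of the intervals that lie wholly to one side of 0, that of miR-494-3p reaches to −0.56 and that of miR-146b-5p to 0.25, and 0 of the 16 passed the adjusted test.

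For further miRNAs among these 16 the detection or the bright array limited what could be read. miR-196a-1-3p and miR-6927-5p each had 4 of 5 probes that no siOCT4-POVPC array read well above background, so their differences of −1.12 and 0.84 are not measured on all sides. miR-1224-5p had a difference of −0.83 (−1.73 to 0.06) and read 8.72, 8.64 and 9.88 in siOCT4-DMSO. The third value stands off, and the median over its probes was −0.82 with all controls, −0.44 without it and −1.60 with it alone. miR-691 behaved likewise, with siOCT4-DMSO values of 5.69, 5.75 and 4.80 and a median of 0.94, which was 0.62 without the third. miR-12204-5p had effects of −0.29 and 0.40 and a difference of 0.68 (0.17 to 1.20). Its siOCT4-DMSO arrays read 5.79, 5.64 and 5.09. The median over its probes was 0.71 with all controls, 0.50 without the third and 1.14 with it alone. The median of miR-8118 was −0.65, and that of miR-7093-5p −0.62. Without siNT-DMSO replicate 2 they were −0.34 and −0.39, and the sign for miR-8118 turned when only well detected probes were used. miR-8118 was listed as higher with POVPC in siNT cells, which favours a difference below 0. Its other listing, as lower after knockdown under DMSO, favours one above 0. miR-3569-3p and miR-6934-3p, with medians of 0.66 and 0.62, had 2 and 1 of 5 probes that no siOCT4-POVPC array read well above background. Their intervals include 0. Both, like miR-6927-5p, were listed as lower with POVPC in siNT cells, which favours a difference above 0.

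**Figure D5:**
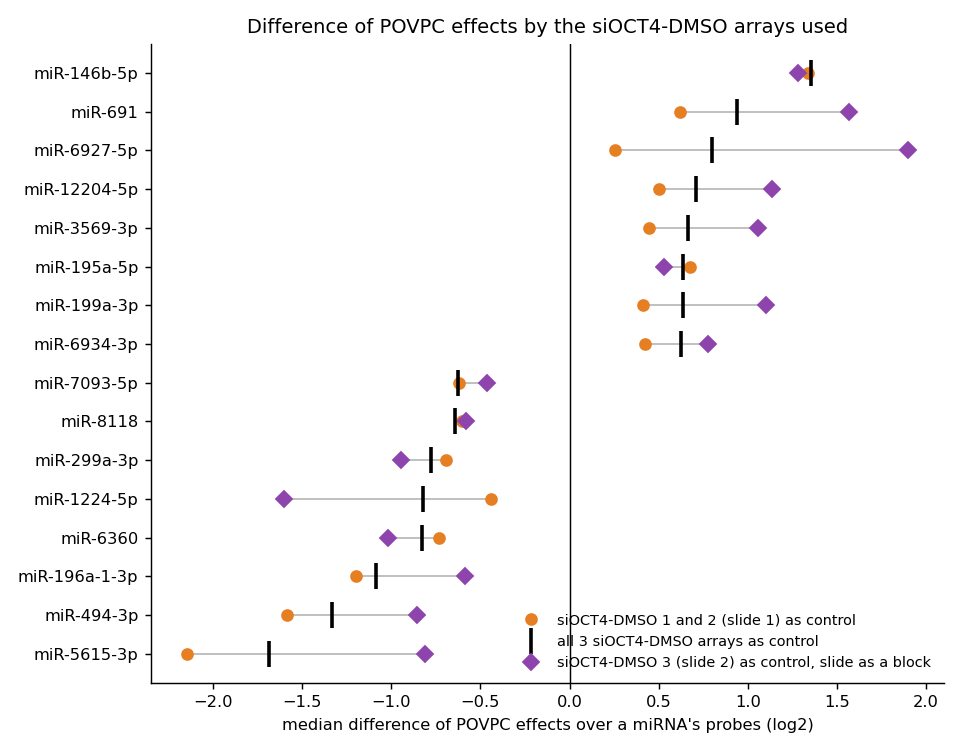
The median difference of POVPC effects over a miRNA's probes (log2) is shown for 16 miRNAs with siOCT4-DMSO replicates 1 and 2 as control (circles), all 3 (bars) or replicate 3 alone, which is the value with slide as a block (diamonds). For all 16 the sign is the same under the 3 choices, but the size for miR-5615-3p runs from −2.15 to −0.81 and that for miR-1224-5p from −0.44 to −1.60.

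Over the 110 named miRNAs as a whole, 67 had a median above 0 and 43 below. Of the 105 with at least 3 tested probes, 37 had every probe above 0 and 19 every probe below. At an unadjusted p under 0.05 there were 117 of 520 probes (22.5% against 5.32% over all tested probes), and 0 were called. The study had picked these miRNAs on the same arrays, so the larger share is not independent of the choice. The miRNAs that the study listed for POVPC numbered 21 in siNT and 36 in siOCT4 cells, with 4 in both lists, namely miR-322-5p, miR-376a-3p, miR-450a-5p and miR-1258-3p. Over the 10 listed as higher in siNT cells, the median effect was 0.62 in siNT and 0.48 in siOCT4 cells, and the median difference of the 50 probes was 0.002, which was −0.22 without siOCT4-DMSO replicate 3 and 0.17 with that array as the only control. Over the 11 listed as lower in siNT cells the medians were −1.22 and −0.80. Over the 29 listed as higher in siOCT4 cells they were 0.71 in siOCT4 and 0.26 in siNT cells. Over the 7 listed as lower in siOCT4 cells they were −0.78 and −0.29. In each of these lists the median of the other arm had the same sign and a smaller size. Choosing miRNAs by 1 arm favours a smaller value in the other. The 4 miRNAs in both lists were chosen by each arm. These medians are therefore a description.

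Among the other small RNA classes limma also called 0 probes when adjusted over all tested probes. The lowest p of all tested probes belonged to a PST probe, ASMM10SMR20PST100044867TV1, with 4.75, 4.20 and 5.02 in siNT-DMSO, 5.03, 4.88 and 5.19 in siNT-POVPC, 5.97, 5.70 and 5.33 in siOCT4-DMSO and 4.33, 4.35 and 4.27 in siOCT4-POVPC. The siOCT4 groups were separate, whereas the siNT groups overlapped, and the difference was −1.72 with a standard error of 0.30 and an adjusted p of 0.784. Adjusted over the 334 PST probes alone, a choice made after seeing the data, the limma adjusted p of this probe was 0.0388. PST probes had a median difference of 0.04, which was −0.20 without siOCT4-DMSO replicate 3, and 33 of 334 (9.88%) had an unadjusted p under 0.05. Among TRF probes the median was 0.01 and 79 of 1672 (4.72%) had an unadjusted p under 0.05. ASMM10SMR20TRF100003142TV1 read 7.69, 8.08 and 7.71 in siNT-DMSO, 7.95, 7.88 and 7.47 in siNT-POVPC, 8.79, 8.97 and 8.81 in siOCT4-DMSO and 7.92, 7.75 and 7.81 in siOCT4-POVPC. Here too siOCT4-DMSO stood above the other 3 groups, which overlapped, and the difference was −0.97 with a standard error of 0.22. A pair of bright TRF probes lay above 0, with differences of 0.93 for ASMM10SMR20TRF100007979TV1 and 0.78 for ASMM10SMR20TRF100007950TV1. Their siOCT4-DMSO values were lowest on replicate 3, at 11.78 and 12.14.

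With slide as a fixed block, 611 probes (5.75%) were called, 270 above and 341 below 0. This fit uses siOCT4-DMSO replicate 3 as the only control of the siOCT4 arm. All 270 probes above 0 had a lower signal on that array than on replicates 1 and 2, and 340 of the 341 below had a higher one. The calls therefore rest on 1 array, and the spread of siOCT4-DMSO within slide 2 could not be measured. With slide as a random block limma called 0 probes.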

How the data were processed

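Per the labels, total RNA was dephosphorylated and its 3′ ends were ligated to pCp-Cy3, which labels any RNA with a free 3′ end. The deposited scanner files give the intensity of each spot as Agilent Feature Extraction 11.0.1.1 processed it, background-subtracted and without normalization across arrays. The deposited table of log2 values, quantile-normalized by the authors in GeneSpring GX, was an alternative and correlated with the scanner values at 0.9996 or more. Control spots and outlier spots (14 to 23 per array) were left out, and signals were quantile-normalized, floored at 1 and taken to log2. The contrast of all 4 groups was fitted with limma 3.58.1 in R 4.3.3 (two-sided), adjusted over all tested probes. The ordinary linear model stands for the methods' t-test. The methods' fold threshold of 1.5 was kept. The number of arrays limits precision, and an exact permutation test of 3 against 3 cannot go below 0.1. Labels with a conflicting description (title and source name agree) were read by source name. Probes were named from the study's lists.

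The members, lists and tests were chosen with earlier results of these data known. Named were, among probes well above background on at least 2 arrays of each group, the 6 miRNA probes and the 2 PST and 2 TRF probes of lowest p in each direction, every called probe (0), the 8 miRNAs with the largest median in each direction over at least 3 probes, and the miRNA lists. Other single probes and miRNAs were picked after their values were seen. Replicate numbers are shared between groups, but the labels do not say what they mark. The fit was checked on simulated data.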

Additional observations from a re-analysis of the deposited data

How the results depend on the processing

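The count of 0 called probes held in 27 of 32 alternatives, among them both 75th percentile scalings, normexp background, the deposited log2 table, stricter filters, outlier spots kept, slide as a random block, array weights, robust variance, miRNA and other probes adjusted separately, and averaged probes. Adjusting miRNA, PST and TRF probes each alone, added after seeing the data, called 1 probe, a named PST probe. Slide as a fixed block called 611 probes, 9 of them among the 20 named. The study's unadjusted p with 1.5-fold gave 372 and 19. Without a filter 1 probe was called, a PST probe well above background on 0 arrays, and 0 of the named. With a floor of 8 it was 1, a miR-669a-3-3p probe among the named (difference −0.65, adjusted p 0.0332). Leaving out each array in turn gave 0 to 0 calls, with 453 to 814 probes at an unadjusted p under 0.05. Array weights raised that number to 1061 and the slide block to 1856. Over 619 values of the 20 named probes under alternatives, 0 changed sign. These probes were picked for low p, and several alternatives leave the estimate itself unchanged. That count was therefore largely fixed in advance. Normexp gave the median of smallest size for many miRNAs, such as 0.44 for miR-146b-5p. For miR-199a-3p and miR-1224-5p array weights did so, with 0.35 and −0.41. Depth here is signal over background, which limits dim probes.

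With the replicate number as a block, 0 probes were called for all and 0 of the named, with 602 at an unadjusted p under 0.05. Deviations of same-numbered arrays correlated between −0.29 and 0.50 over 18 pairs (mean 0.09, against −0.05 for differently numbered arrays), and 7 of 12 arrays correlated best with their own number, a hint of pairing from the data. The labels name no shared source and some pairs correlated below 0, so the numbers were not taken to pair the samples.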
